A study of Rattus norvegicus with 9 samples.

Results

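Annexins are proteins that bind acidic phospholipids, among them phosphatidylserine, when calcium rises, and so attach to the inner face of cell membranes. They act in exocytosis, in resealing of torn plasma membrane and in inflammation, and several are also found on the outer cell surface. In the eye, annexins A2 and A5 are known for parts in the uptake of photoreceptor outer segments by the pigment epithelium, and annexin A1 is made by glia and immune cells. The family was taken here as 8 genes, chosen by name: Anxa1, Anxa2, Anxa3, Anxa4, Anxa5, Anxa6, Anxa7 and Anxa11. Of these, 5 had a probe under their symbol on the array, out of 12978 genes with a symbol, and Anxa6, Anxa7 and Anxa11 were not analysed here. Each of the 5 genes had 1 probe, and each probe was detected in all 9 retinas and passed the filter for testing.

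The retinas came from male Sprague-Dawley rats. The 4 diabetic rats had received 65 mg/kg streptozotocin, a toxin of pancreatic beta cells, by intraperitoneal injection, and the 5 control rats had received the citrate vehicle alone. Retinas were collected after 3 months of hyperglycemia, and RNA of each rat was measured on 1 RatRef-12 array. Diabetic retinas 1 to 4 and control retinas 4 and 5 were on BeadChip 2, and control retinas 1 to 3 were on BeadChip 1. A further diabetic array was removed by the authors in quality control. The model is a chemically induced diabetes in 1 outbred strain and 1 sex, and precision is limited by how few arrays there are. In whole retina, more cells of a type and more RNA per cell cannot be told apart.

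Values are given as average bead signal, in arbitrary units as scanned, or as log2 normalized signal, in which array background was modelled and all arrays were brought to the same distribution. A fold change is diabetic minus control on that log2 scale, with its standard error (SE) from the limma fit over all tested probes, and a gene is called higher or lower where the Benjamini-Hochberg adjusted p is under 0.05. Signals of different probes have no common scale and were not set against each other.

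Both annexins that were called, Anxa2 and Anxa5, are shown with their promoters, together with Anxa1, whose values were the most spread among diabetic retinas. The sequences are the 250 bases before the start site in RefSeq (build GRCr8), written 5′ to 3′ along the gene, and capitals mark matches to 3 short motifs: the AP-1 site TGANTCA, the TATA box TATAAA and the GC box GGGCGG.
Anxa2, chr8:78986002-78986251, plus strand: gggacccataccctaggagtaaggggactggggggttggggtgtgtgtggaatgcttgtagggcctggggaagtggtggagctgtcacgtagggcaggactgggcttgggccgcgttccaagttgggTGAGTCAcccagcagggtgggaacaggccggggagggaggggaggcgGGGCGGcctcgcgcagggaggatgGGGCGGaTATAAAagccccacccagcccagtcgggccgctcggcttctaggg
Anxa5, chr2:121272697-121272946, minus strand: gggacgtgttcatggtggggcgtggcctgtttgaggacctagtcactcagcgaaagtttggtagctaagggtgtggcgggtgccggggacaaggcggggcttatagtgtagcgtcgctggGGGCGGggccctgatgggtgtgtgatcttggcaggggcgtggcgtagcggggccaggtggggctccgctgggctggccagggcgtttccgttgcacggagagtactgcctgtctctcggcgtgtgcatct
Anxa1, chr1:227303733-227303982, minus strand: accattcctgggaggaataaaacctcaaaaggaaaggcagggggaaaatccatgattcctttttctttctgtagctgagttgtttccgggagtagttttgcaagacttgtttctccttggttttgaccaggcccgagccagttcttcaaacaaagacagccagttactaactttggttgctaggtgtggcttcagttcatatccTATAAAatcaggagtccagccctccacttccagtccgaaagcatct

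The Anxa2 promoter held an AP-1 site 123 bases before the start, GC boxes 76 and 52 bases before it, and a TATA box 45 bases before it, just after the nearer GC box. Anxa1 held a TATA box in nearly the same place, 46 bases before the start, and no other match. Anxa5 held a single GC box 130 bases before the start, and neither of the other motifs. The promoter of Anxa3 held 3 GC boxes and that of Anxa4 held 1. A further motif, the STAT site TTCNNNGAA, had no match in any of these windows. Over the same window, 6.34% of 33469 RefSeq promoters held the AP-1 letters on either strand, 7.67% the STAT letters on either strand, 8.06% the TATA letters on the gene's own strand and 30.5% the GC box letters on either strand. No motif in these lists overlapped another within the 3 printed promoters. These matches describe letters, and no binding was measured.

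Hybridisation was to 1 probe of 50 bases per gene, and probe sequences of the 2 called annexins are given because every value for these genes comes from a single probe. They were matched to the array by transcript accession, which 1 array probe carried for each gene, and the probe identifiers of the source differ from those of the array table, so that the identity of the sequences with the measured probes was not checked further.
Anxa5 probe: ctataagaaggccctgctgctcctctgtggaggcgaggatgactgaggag
Anxa2 probe, opening part: acgactgaagggcttggcatggtggattgc

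Anxa2 and Anxa5 were higher in diabetic retinas, and no annexin was lower. Over the 5 genes the median log2 fold was 0.26, beside a median of -0.01 over all 10261 tested probes. Of the 5, 2 were called higher, beside 4.84% of all tested probes called higher, and 0 were called lower, beside 4.47% called lower and 9.32% called in either direction. The same 2 genes were the ones with no overlap between the groups, beside 6.6% of all tested probes with every diabetic value above every control value. The remaining genes, Anxa1, Anxa3 and Anxa4, did not pass the test, with positive folds between 0.22 and 0.26.

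**Figure D1:**
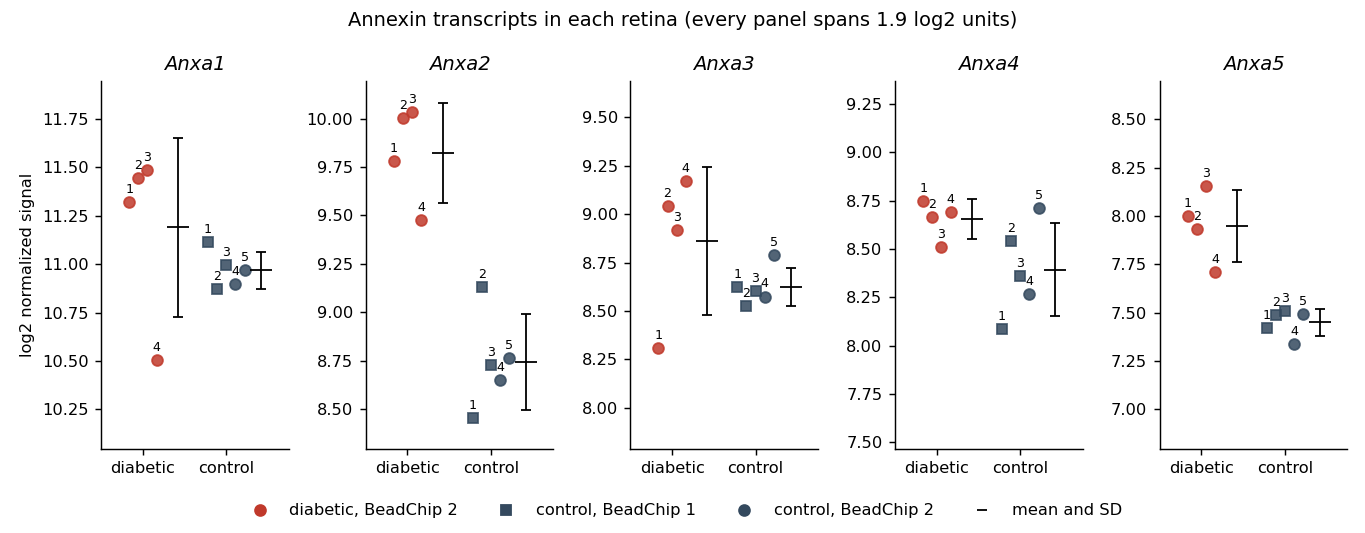
Log2 normalized signal of the 5 annexins in each retina, with diabetic retinas in red and control retinas in dark blue, squares for BeadChip 1 and circles for BeadChip 2, retina numbers above the points, and the mean and SD of each group beside them. Every panel spans the same log2 range, so distances compare between panels. The groups separate for Anxa2 and Anxa5, diabetic retina 4 lies below all others for Anxa1 and diabetic retina 1 lies below all others for Anxa3.

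Annexin A2 forms a tetramer with S100A10 and, on the cell surface, binds tissue plasminogen activator and plasminogen, which places it in fibrinolysis and at the membrane of vessels and migrating cells. Average bead signals of Anxa2 were 1191, 1094, 1327 and 822 in diabetic retinas 1 to 4, against 454, 548, 490, 612 and 574 in control retinas 1 to 5. On the log2 scale these were 9.78, 10.01, 10.04 and 9.48 in diabetic retinas, and 8.45, 9.13, 8.73, 8.65 and 8.76 in control retinas. Every diabetic retina was above every control retina on either scale, with diabetic retina 4 the lowest of its group. The means were 9.83 ± 0.26 in diabetic retinas (SD, n = 4) and 8.74 ± 0.25 in control retinas (SD, n = 5). The log2 fold was 1.08 (SE 0.15, 95% confidence interval 0.73 to 1.43), or 2.12-fold, with a limma adjusted p of 0.00621, the 118th smallest p of the tested probes. With BeadChip as a block the log2 fold was 1.12 (limma adjusted p = 0.0490), and among the arrays of BeadChip 2 alone it was 1.12 (limma adjusted p = 0.0968). Leaving out each retina in turn kept the adjusted p between 0.00420 and 0.0219. RefSeq lists a rat pseudogene, Anxa2-ps1, and whether it adds to this signal was not tested.

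Annexin A5 binds phosphatidylserine with high affinity and is best known as the reagent that labels dying cells. Its average bead signals were 420, 305, 423 and 258 in diabetic retinas 1 to 4, against 179, 164, 188, 178 and 206 in control retinas 1 to 5. On the log2 scale they ran between 7.71 and 8.16 in diabetic retinas, and between 7.34 and 7.51 in control retinas. The groups did not overlap, the controls lay close together, and diabetic retina 4 was again nearest to them. The means were 7.95 ± 0.19 in diabetic retinas (SD, n = 4) and 7.45 ± 0.07 in control retinas (SD, n = 5). The log2 fold was 0.50 (SE 0.08, 95% confidence interval 0.31 to 0.69), or 1.41-fold, with a limma adjusted p of 0.0105. Without the background step the log2 fold was 0.77, or 1.70-fold (limma adjusted p = 0.00138). The call was lost with BeadChip as a block (0.53, limma adjusted p = 0.0645), among the arrays of BeadChip 2 alone (0.53, limma adjusted p = 0.180) and under median scaling in place of quantile normalization (0.56, limma adjusted p = 0.167).

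**Figure D2:**
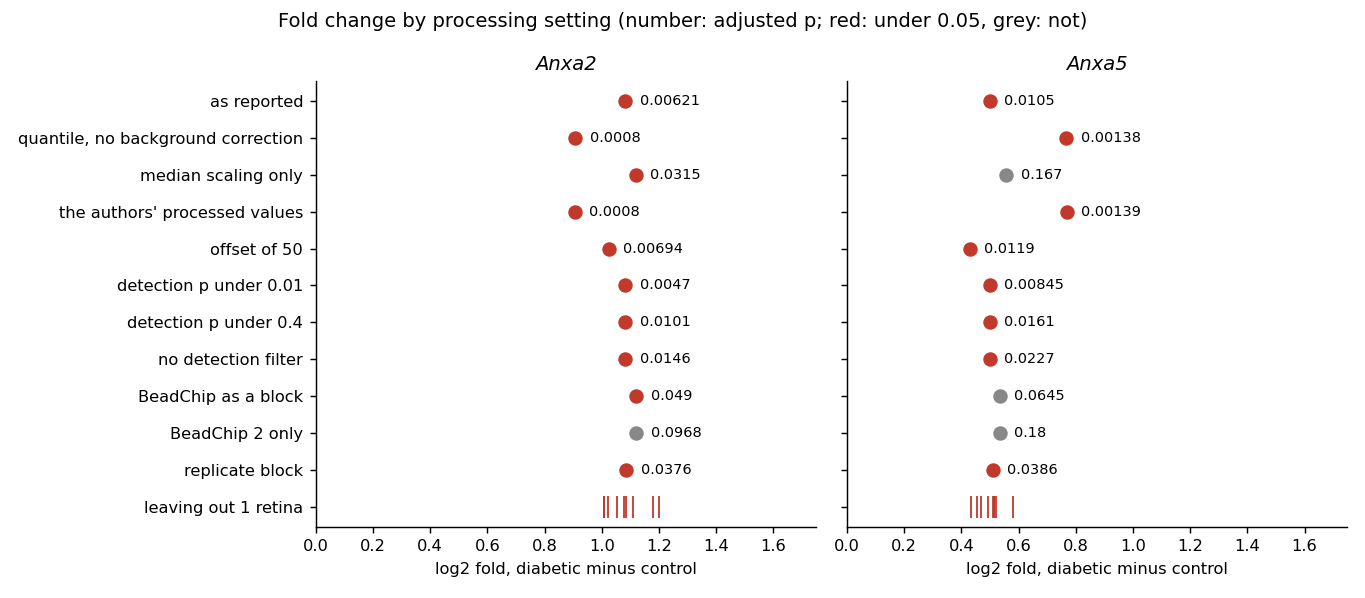
Log2 fold, diabetic minus control, of Anxa2 and Anxa5 under the reported processing and under each alternative, with the limma adjusted p beside each point and red where it is under 0.05. The lowest line marks the folds when 1 retina is left out. Anxa5 shows the larger relative shifts, with folds between 0.43 and 0.77, and every fold of both genes is above 0.

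Annexin A1 is induced by glucocorticoids and acts on formyl peptide receptors of leukocytes to limit inflammation. Average bead signals of Anxa1 were 3017, 2764, 3377 and 1551 in diabetic retinas 1 to 4, against 2302, 1604, 1954, 2432 and 2183 in control retinas 1 to 5. On the log2 scale these were 11.32, 11.45, 11.49 and 10.51 in diabetic retinas, and between 10.87 and 11.11 in control retinas. Diabetic retinas 1 to 3 were above all controls on the log2 scale, and diabetic retina 4 was the lowest of the 9. The means were 11.19 ± 0.46 in diabetic retinas (SD, n = 4) and 10.97 ± 0.10 in control retinas (SD, n = 5). The log2 fold was 0.22 (SE 0.19, 95% confidence interval -0.21 to 0.65) with a limma adjusted p of 0.524. The value moved with single diabetic retinas. Without diabetic retina 4 the log2 fold was 0.45 (limma adjusted p = 0.00771), without retina 3 it was 0.12 (limma adjusted p = 0.792) and without retina 2 it was 0.13 (limma adjusted p = 0.745).

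Annexin A3 is abundant in neutrophils and other phagocytes. Log2 signals of Anxa3 were 8.31, 9.04, 8.92 and 9.17 in diabetic retinas 1 to 4, against 8.62, 8.52, 8.61, 8.57 and 8.79 in control retinas 1 to 5. On this scale diabetic retina 1 was the lowest of the 9, and the other diabetic retinas were above all controls. This gave a log2 fold of 0.24 (SE 0.16, 95% confidence interval -0.13 to 0.60) with a limma adjusted p of 0.410. Without diabetic retina 1 the log2 fold was 0.43 (limma adjusted p = 0.0188), and without diabetic retina 4 it was 0.13 (limma adjusted p = 0.666). Diabetic retina 4, the lowest for Anxa1, was the highest of all 9 for Anxa3.

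Annexin A4 is concentrated at the membranes of secretory epithelia. Log2 signals of Anxa4 were 8.75, 8.67, 8.51 and 8.69 in diabetic retinas 1 to 4, against 8.09, 8.54, 8.36, 8.27 and 8.71 in control retinas 1 to 5. Each diabetic retina was above the control mean, but control retinas 2 and 5 were within the diabetic range. Anxa4 had a log2 fold of 0.26 (SE 0.12, 95% confidence interval -0.01 to 0.53) with a limma adjusted p of 0.211, and no alternative brought it past the threshold. Unlike the other 4 genes, Anxa4 was less spread among diabetic than among control retinas, with SDs of 0.10 and 0.24.

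The spread among diabetic retinas differed between the annexins. The ratio of the SD in diabetic retinas to that in control retinas was 4.83 for Anxa1, 3.81 for Anxa3, 2.63 for Anxa5, 1.05 for Anxa2 and 0.42 for Anxa4. The median of this ratio over all tested probes was 1.23, and 2.31% of them reached the ratio of Anxa1, 4.41% that of Anxa3 and 11.8% that of Anxa5. The order of the diabetic retinas was shared by some annexins and not by others. By average bead signal Anxa1, Anxa2 and Anxa5 all ran retina 3, 1, 2, 4 from the highest, and on the log2 normalized scale Anxa1 and Anxa2 had retinas 1 and 2 exchanged. For Anxa3 retina 4 was the highest and retina 1 the lowest diabetic retina on either scale.

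**Figure D3:**
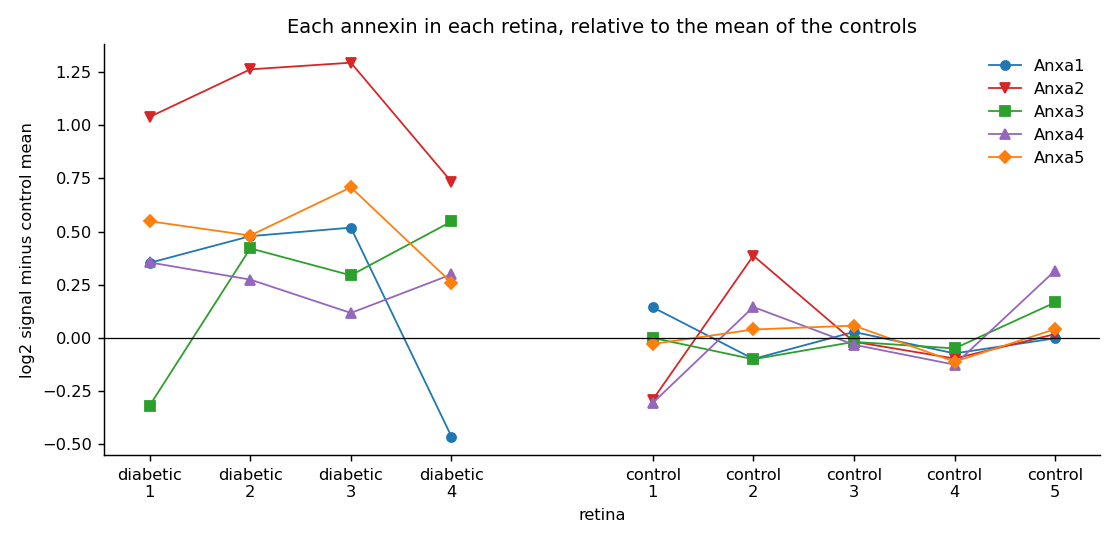
Log2 signal of each annexin minus its mean over the 5 control retinas, for diabetic retinas 1 to 4 on the left and control retinas 1 to 5 on the right, with 1 line per gene. Anxa2 and Anxa5 are above 0 in every diabetic retina, Anxa1 drops below 0 in diabetic retina 4 and Anxa3 in diabetic retina 1, while most control points lie close to 0.

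A pair of further annexin symbols on the array lay outside the 8 genes. Anxa8, an annexin of squamous and other epithelia, was detected in all 9 retinas, with log2 signals of 7.36, 7.29, 7.68 and 7.18 in diabetic retinas 1 to 4, against 7.23, 7.25, 7.17, 7.17 and 7.14 in control retinas 1 to 5. Diabetic retina 3 was the highest and diabetic retina 4 lay within the control range. For Anxa8 the log2 fold was 0.18 with a limma adjusted p of 0.246, and without diabetic retina 3 it was 0.08 (limma adjusted p = 0.371). Anxa13, an annexin of the intestine, was detected in 0 of 9 retinas and was not tested.

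Genes whose products bind annexins or act with them were read from a list of 15, of which 11 had a probe under their symbol and 9 were tested. Of the 9, 3 were called higher (S100a6, S100a4 and Plat) and 0 lower, beside 4.84% called higher and 4.47% called lower of all tested probes, with a median log2 fold of 0.15. S100a10, the partner of annexin A2, had no probe under its symbol and was not analysed here, and Plg (plasminogen) and Fpr1 (a formyl peptide receptor) were not detected in any retina.

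S100A6 is a small calcium-binding protein that binds several annexins, A2 among them. Average bead signals of S100a6 were 3116, 1953, 4356 and 1590 in diabetic retinas 1 to 4, against 359, 445, 345, 291 and 276 in control retinas 1 to 5. The lowest diabetic value was several times the highest control value, and the log2 fold was 3.08 (SE 0.29), or 8.47-fold, with a limma adjusted p of 0.00213. S100A4, which also binds annexin A2, is known for its part in cell motility. Average bead signals of S100a4 were 6277, 3841, 7557 and 2933 in diabetic retinas, against 1555, 1676, 1131, 1223 and 1095 in control retinas. The groups did not overlap, and the log2 fold was 1.86 (SE 0.30), or 3.63-fold, with a limma adjusted p of 0.00936. For both genes the diabetic retinas ran 3, 1, 2, 4 from the highest, the order of bead signals seen for Anxa1, Anxa2 and Anxa5.

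S100A11 is the partner that annexin A1 binds. Average bead signals of S100a11 were 1407, 1051, 1320 and 638 in diabetic retinas 1 to 4, against 637, 652, 687, 660 and 611 in control retinas 1 to 5. Diabetic retina 4 was at the control level and the other diabetic retinas were well above it. The log2 fold was 0.67 (SE 0.24) with a limma adjusted p of 0.117, and without diabetic retina 4 it was 0.92 (limma adjusted p = 0.0150). Plat encodes tissue plasminogen activator, a ligand of annexin A2. Log2 signals of Plat were 8.32, 8.45, 8.55 and 8.74 in diabetic retinas, against 8.21, 7.94, 8.07, 7.95 and 8.02 in control retinas. The groups did not overlap, diabetic retina 4 was the highest of all, and the log2 fold was 0.48 (SE 0.09) with a limma adjusted p of 0.0150. The Plat call was lost with BeadChip as a block (limma adjusted p = 0.0769) and under median scaling (limma adjusted p = 0.148).

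Genes of phosphatidylserine exposure and recognition, the lipid signal to which annexin A5 binds, were read as a further list. Of 21 genes, 11 had a probe under their symbol and 8 were tested, of which 0 were called higher and 1 was called lower, beside 4.84% and 4.47% of all tested probes, with a median log2 fold of -0.01. A single call among 8 genes is near the share over all probes. The gene called was Mfge8, a secreted bridge between phosphatidylserine and integrins of phagocytes. Log2 signals of Mfge8 were 12.54, 12.62, 12.45 and 12.66 in diabetic retinas 1 to 4, against 12.84, 13.05, 12.76, 12.85 and 12.94 in control retinas 1 to 5. Every diabetic retina was below every control retina on this scale, with a log2 fold of -0.32 (SE 0.06) and a limma adjusted p of 0.0187. The call was lost with BeadChip as a block (limma adjusted p = 0.115), under median scaling (limma adjusted p = 0.341) and without diabetic retina 3 (limma adjusted p = 0.0551).

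Annexins also act in repair of the plasma membrane, for which a list of 15 genes was read. Of these 15 genes, 14 had a probe under their symbol and 8 were tested, of which 1 was called higher and 0 lower, again beside 4.84% and 4.47% of all tested probes and near that share, with a median log2 fold of 0.01. The gene called was Capn2, the large subunit of m-calpain, a calcium-dependent protease. Log2 signals of Capn2 were 11.72, 11.29, 11.61 and 11.23 in diabetic retinas 1 to 4, against 10.53, 10.84, 10.68, 10.42 and 10.52 in control retinas 1 to 5. The groups did not overlap, and the log2 fold was 0.87 (SE 0.12), or 1.82-fold, with a limma adjusted p of 0.00621. Under median scaling the Capn2 call was lost (limma adjusted p = 0.112), as was that of S100a4 (limma adjusted p = 0.0517). Among the arrays of BeadChip 2 alone no gene of these lists passed the threshold, with limma adjusted p of 0.0766 for S100a6, 0.0968 for S100a4, 0.155 for Plat, 0.136 for Mfge8 and 0.0968 for Capn2, and log2 folds of 3.46, 2.27, 0.53, -0.33 and 0.99 in that order.

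**Figure D4:**
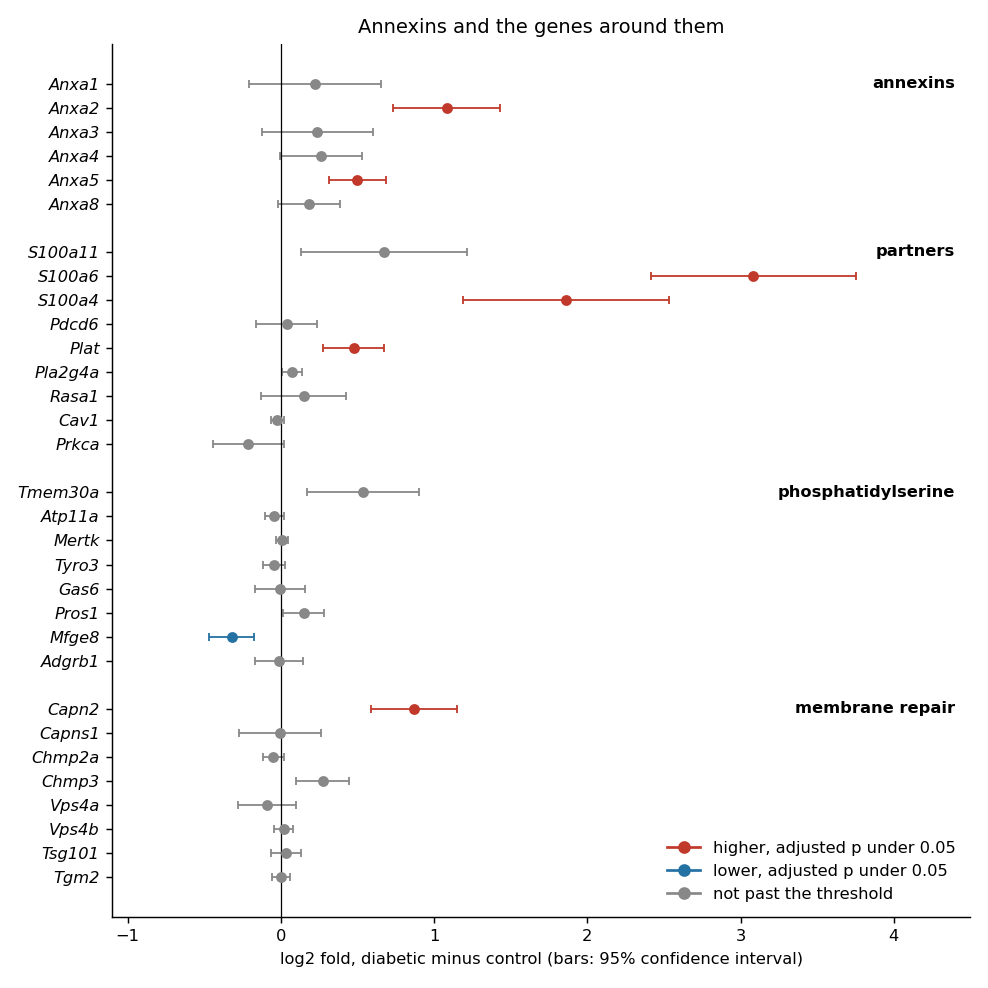
Log2 fold, diabetic minus control, with its 95% confidence interval, of the tested annexins and of the tested genes of the lists of annexin partners, phosphatidylserine exposure and recognition, and membrane repair. Red marks genes called higher, blue genes called lower and grey genes not past the threshold. S100a6 and S100a4 have the largest folds shown, at 3.08 and 1.86, and Mfge8 is the gene called lower.

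The tested genes most like Anxa2 were sought over the 9 retinas. The measure was the root mean square difference between log2 values after subtraction of each control mean. A similar fold between the groups lowers this measure by itself. A small value therefore need not mean that genes followed each other within a group, and similar folds follow from the choice. For Anxa2 the closest genes were Gpd1 (0.145), the cytosolic glycerol-3-phosphate dehydrogenase, Tmem176b (0.184), a membrane protein, and Mdk (0.203), the growth factor midkine. Their own log2 folds were 1.07 for Gpd1, 0.90 for Tmem176b and 0.93 for Mdk. For Anxa5 they were Ajuba (0.0577), Bcar3 (0.0712) and Fndc3b (0.0716), the first of which encodes a LIM domain protein of cell junctions. For Anxa4 they were Lurap1l (0.0673), Pon2 (0.0854), a paraoxonase, and Tubb2b (0.114), a beta tubulin. None of these genes is an annexin.

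Marker transcripts of some cell types also differed between the groups. Counts of markers called stand beside 4.84% of all tested probes called higher and 4.47% called lower. Of 9 tested markers of lens fibre cells 8 were called higher in diabetic retinas. Mip was not called (log2 fold 0.39, limma adjusted p = 0.841), and on the log2 scale diabetic retinas 2 to 4 lay below its control mean. The summed average bead signal of the 9 markers was 58686 to 103949 in diabetic retinas and 5163 to 11564 in control retinas. By retina the lens sums were 103949, 65149, 99602 and 58686 in diabetic retinas 1 to 4, so that retina 4 was lowest. Among diabetic retinas the bead signals of Anxa1, Anxa2, Anxa5, S100a6, S100a4, S100a11 and Capn2 were also lowest there, while that of Anxa3 was highest there. Those of Anxa4, Plat and Mfge8 were lowest in diabetic retina 2. Of 10 tested markers of stressed Müller glia 9 were called higher, with summed signals of 33433 to 47190 in diabetic retinas and 13043 to 17648 in control retinas, and Socs3 was not detected. Stat3, Cp and Lgals3 of this list had been picked by the authors from these array data for protein measurement. Their calls were thus known before the list was made. By retina the glial sums were 37492, 34618, 47190 and 33433 in diabetic retinas 1 to 4, in the order 3, 1, 2, 4 from the highest. Vim was the largest term of each sum, with bead signals of 18200, 15035, 18550 and 15112 in diabetic retinas 1 to 4. The bead signals of Anxa1, Anxa2, Anxa5, S100a6 and S100a4 ran in the order of the glial sums. The lens sums ran 1, 3, 2, 4, as did the bead signals of S100a11 and Capn2. Those of Anxa3, Anxa4, Plat and Mfge8 ran in neither order. As means of log2 normalized signal the glial markers were 9.94, 10.37, 10.54 and 10.36 in diabetic retinas 1 to 4, with retina 1 the lowest. The glial order thus depended on the scale. The lens means were 12.91, 12.19, 12.64 and 11.83, in the order of the lens sums. Of 4 tested markers of resting Müller glia 0 were called, with a median log2 fold of -0.11. Summed signals of these resting markers were 14444 to 20831 in diabetic retinas and 14086 to 18237 in control retinas. Of 6 tested markers of microglia and macrophages 2 were called higher (C1qb and C1qc), and the leukocyte marker Ptprc was not detected. No tested marker of endothelium and pericytes (of 4) or pigment epithelium (of 4) was called, and Cdh5, Tek and Rgs5 were not detected. Of 6 tested ganglion cell markers 4 were called lower and of 6 tested rod markers 1 was, beside 4.47% of all tested probes. A single call among 6 rod markers is near that share. Rod markers, which mark the most numerous cells of the rat retina, were bright in every array, with summed signals of 53671 to 64756 in diabetic retinas and 52008 to 62534 in control retinas. On the log2 normalized scale the mean of the rod markers was 12.18 to 12.30 in diabetic retinas and 12.39 to 12.49 in control retinas. Every diabetic retina was thus below every control retina on that scale. The part of lens, glial or other transcripts in the annexin values was not tested.

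The median average bead signal was 76.9 to 87.9 in diabetic arrays and 70.0 to 84.4 in control arrays, and 11207 to 11609 probes were detected per diabetic array and 10843 to 11524 per control array. Of 10261 tested probes, 956 were called, of which 497 were higher and 459 lower.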

How the data were processed

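Retinal RNA of 9 rats was labelled and hybridised to Illumina RatRef-12 BeadChips, 1 rat per array. Per the file headers, the deposited table holds the average bead intensity (linear, before any normalization between arrays) and the detection p-value of each of 22226 probes, as the authors read them out with GenomeStudio 1.0.6. The processed intensity that the authors also deposited is quantile normalized, and served as an alternative. The authors' own test was a t-test combining an unadjusted p below 0.05 with a change of at least 1.2-fold.

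Intensities were corrected by the normexp model of limma 3.58.1 (R 4.3.3), in which the negative controls were deduced from detection p-values and the offset was 16, then quantile normalized and put on a log2 scale. A probe was kept if its detection p was below 0.05 in every array of either group. The 10261 probes kept were fitted with lmFit and eBayes, two-sided, and p-values were adjusted over all of them by Benjamini-Hochberg. Gene symbols were those of the array annotation, which gives 1 symbol to 13192 probes and none to 9034. Where a list gene had several probes, the brightest tested probe was used. The fit was tested on simulated data of the same size. Motifs, sequences and figures were handled in Python 3.11.15 with matplotlib 3.10.9. Promoters were those of RefSeq, build GRCr8. Probe sequences were taken from the study's supplementary table and matched by accession.

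The members and gene lists were chosen with earlier results of these data known. The text names all probes of the members, any other annexin symbol on the array, S100a11, the list genes past the threshold, up to 4 per list, and the 3 genes most like each of the 3 members with the smallest adjusted p. Alternatives changed the background correction, the normalization, the offset, the detection filter, the blocks and the test, and left out each retina in turn.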

Additional observations from a re-analysis of the deposited data

Results flagged for a closer look

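Of 64 groups of retinas examined for a value lying far from the rest of its group, 4 held such a value. Chance gives about 1 in 20, and the count is near that share. For Anxa1, diabetic retina 4 had a log2 signal of 10.51, the lowest of its group, with the nearest at 11.32. For S100a11, the partner of annexin A1, the same retina had 9.01, with the nearest at 9.94. For Cav1, which encodes caveolin 1, control retina 5 was the highest of its group at 7.09, with the nearest at 7.06, so the distance is small on the log2 scale. For Vps4a, which encodes an ATPase of membrane remodelling, control retina 2 was the highest of its group at 9.46, with the nearest at 9.19. None of these 4 genes passed the test between groups, with limma adjusted p of 0.524 for Anxa1, 0.117 for S100a11, 0.478 for Cav1 and 0.567 for Vps4a.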

How the results depend on the processing

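No call changed its direction. Of 19 alternatives, 18 kept the Anxa2 call and 16 the Anxa5 call, and 0 gave one for Anxa4. Over all 19 the limma adjusted p lay between 0.000800 and 0.0968 for Anxa2 and between 0.00138 and 0.180 for Anxa5. Counts below are of annexins, of all probes, and of genes from the lists of annexin partners, phosphatidylserine and membrane repair called, where 2, 956, 3, 1 and 1 were reported. Median scaling gave 1, 77, 1, 0 and 0, and 87.0% of its probes were higher, beside 52.0% as reported. BeadChip as a block gave 1 annexin, 179 probes (70.4% higher) and 0 phosphatidylserine genes. BeadChip 2 alone, with 2 control retinas, gave 0, 11, 0, 0 and 0, and 72.7% of its probes were higher. No detection filter gave 575 probes, and the methods' t-test after Benjamini-Hochberg adjustment 535. Phosphatidylserine genes numbered 2 without background correction, with the authors' processed values and at the methods' thresholds by limma or by t-test, where membrane repair genes also numbered 2. At those thresholds limma called 1030 probes and the t-test 960. The cause of these shifts was not tested. Leaving out each retina in turn gave 2 to 3 annexins, 472 to 1016 probes, 3 to 4 partners, 0 to 2 phosphatidylserine genes and 1 to 2 membrane repair genes. The lowest count of probes, 472, came without control retina 4.

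Retinas with the same number in both groups were not paired in the reported fit. Their deviations from the group means correlated at -0.08, 0.16, -0.07 and 0.15 for numbers 1 to 4. The highest correlation of each control retina with a diabetic retina of another number was 0.29, 0.23, 0.04 and -0.02 in that order. So few values cannot show whether the numbers mark pairs. With the replicate block, over the numbers shared by the groups, 2 annexins were called (Anxa2, limma adjusted p = 0.0376, and Anxa5, limma adjusted p = 0.0386), with 246 probes and 0 phosphatidylserine genes, and Plat (limma adjusted p = 0.111), Mfge8 (0.0540) and Capn2 (0.0548) did not pass the threshold. The number of arrays limits all of these values, and the folds of Anxa5 and Anxa8, of low log2 signal, were 0.77 and 0.49 without background correction, against 0.50 and 0.18 as reported.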
